A study of Arabidopsis thaliana with 46 samples.

Results

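The strongly dark-induced genes of Arabidopsis shoots were the 35 probe sets, of 22746 that are not array controls, that passed a rule based on their own values. Members were chosen by the rule that the group mean in extended darkness exceeded the group mean in light by at least 5 on the log2 scale, a 32-fold difference, in both SALK_070989 and COL-0. The rule used the 12 arrays of the light experiment, so those differences are given as a description and carry no test. The threshold was reached by 39 probe sets in SALK_070989 and by 62 in COL-0, and by 38 in both. Of these 38, the probe sets of AT4G33150, GAT1_2.1 and COR27 were set aside by name, which leaves 35. The annotation gives 1 gene name to 16 of the 35, and the other 19 are given by probe set or by count, with no gene or role attached.

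Transcript levels were measured in shoots on 46 Affymetrix arrays in 16 groups, 14 groups with 3 arrays and 2 groups with 2. Plants were 14 days old, raised on plates under 50 µmol m-2 s-1 of light for 16 h and darkness for 8 h at 22 °C, and harvested 2 h after the lights came on or would have come on. The genotypes were 3 insertion lines of the transcription factor gene WRKY1 (SALK_016954, SALK_136009 and SALK_070989) and the wild type COL-0. In the light experiment, plates of SALK_070989 and COL-0 were wrapped in foil at the start of the light period on day 13 and harvested in the dark on day 14 (dark), or kept in the normal cycle (light). In the nitrogen experiment, seedlings of SALK_070989 and COL-0 were raised with KNO3 at 1 mM as the nitrogen source. They then spent 2 h in the light either on N-rich medium, which held NH4NO3 and KNO3 at 20 mM each, or on N-absent medium, which held KCl at 20 mM. In the combined experiment, shoots of SALK_070989 and COL-0 came from darkness on N-rich medium (dark N-rich) or N-absent medium (dark N-absent), and the labels give neither the length of that darkness nor the time on the medium. Its COL-0 groups are the groups of 2 arrays, and a label says that the third dark N-absent sample was lost at collection. In the steady experiment, the 3 insertion lines and COL-0 stayed on full medium in the light. No label says that replicates were separate cultures, so the tests measure only the spread between these samples.

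Shoots kept in the dark stop making sugar and draw on starch, and when that store is spent they enter carbon starvation. The kinase SnRK1 senses low energy and, with bZIP transcription factors, switches on genes for the breakdown of amino acids, lipids and proteins while growth genes are turned down. Darkness also removes the light signals that set the circadian clock, whose outputs include several genes first described as cold-induced.

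Values are log2 levels, and the lowest value in the table is 2.23, at which probe sets without signal lie. A group mean under 3 is called near the lowest level here, and a difference against such a group is a lower bound. WRKY1 had group means of 2.25 to 2.67 in SALK_070989, 2.26 in SALK_016954 and 4.22 in SALK_136009, against 6.65 to 7.73 in the COL-0 groups. Of the 4 shoot markers, only RCA, which encodes Rubisco activase, is named in the annotation. Its summed level was 10.87 to 11.75 in the dark arrays, counting the light and combined experiments, and 13.89 to 14.05 in the arrays kept in light. Of the 5 root markers, PYK10 had group means of 10.61 to 12.17, while EXPA7 and EXPA18 stayed at or near the lowest level except for EXPA7 in SALK_070989 dark N-rich, at 3.07. The summed level of these 3 was 14.90 to 17.60 in the dark arrays and 15.92 to 18.38 in those kept in light. In whole shoots, fewer cells of a type and less RNA per cell cannot be told apart. The 3′ minus 5′ difference of the GAPDH control probes, a sign of RNA quality, was 3.02 in SALK_070989 steady replicate 3 and 2.91 in COL-0 dark N-absent replicate 1, against 1.79 to 2.64 in the other 44 arrays.

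Across the 35 members, the median group level was 10.04 in SALK_070989 dark and 10.02 in COL-0 dark, against 3.37 in SALK_070989 light and 2.83 in COL-0 light. The median over all 22746 probe sets lay between 4.29 and 4.56 in the same 4 groups. All 35 members passed the filter of the linear model, which kept the 14288 probe sets with a group mean above 4, and 15 of them were near the lowest level in both light groups, so they passed through the dark groups. The rule itself fixed that all 35 were called higher in the dark arrays that chose them. The shares of all probe sets tested that were called so there, 37.5% in SALK_070989 and 38.1% in COL-0, are given only as background, and nothing is read from that count. The members just inside the threshold were AT1G12080, with 5.08 in SALK_070989 and 5.05 in COL-0, and 2 unnamed probe sets with 5.01 in SALK_070989. Just outside lay 3 unnamed probe sets with smaller differences of 4.99, 4.90 and 4.89.

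**Figure D1:**
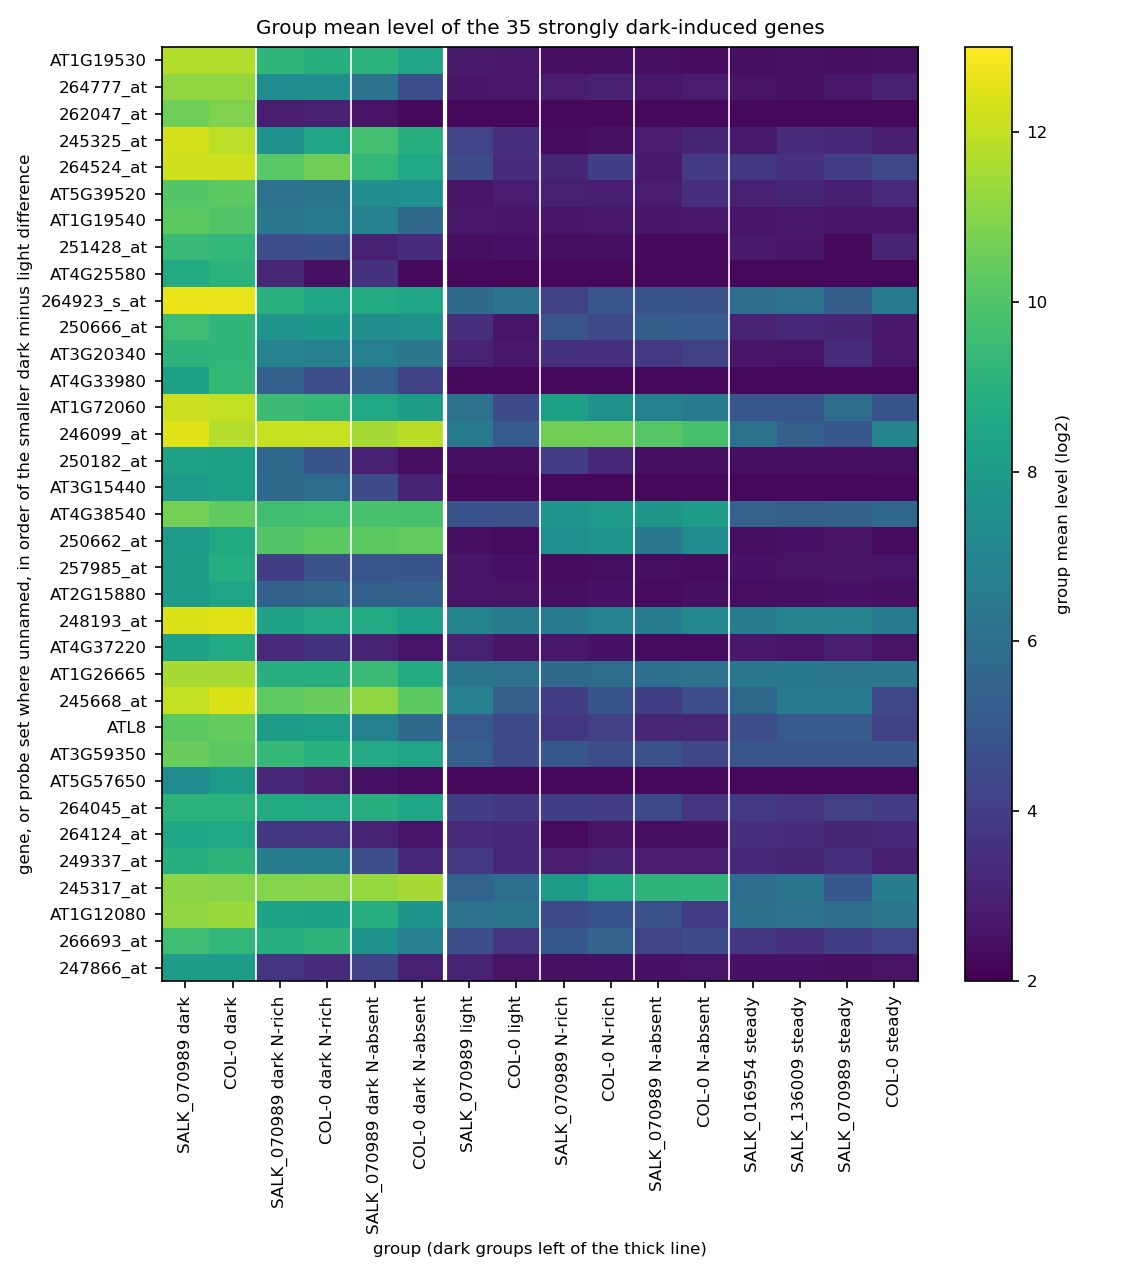
Heat map of the group mean level (log2, colour) of the 35 genes in the 16 groups, with the 6 dark groups left of the thick line. The median over the genes is 10.04 and 10.02 in the 2 dark groups of the light experiment, 6.73 to 7.87 in the 4 combined dark groups and 2.83 to 3.37 in the 10 groups kept in light.

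AT1G19530 and AT1G19540 are next to each other on chromosome 1, with 0 genes between them in the TAIR10.1 gene table. AT1G19530 is a gene of unknown function known from work on low oxygen, and AT1G19540 encodes an NmrA-like oxidoreductase of the isoflavone reductase type. AT1G19530 had 11.84, 11.71 and 11.64 in SALK_070989 dark and 11.74, 11.74 and 11.67 in COL-0 dark, against 2.77, 3.23 and 2.44 in SALK_070989 light and 2.37, 3.07 and 2.77 in COL-0 light. AT1G19540 had 10.08, 10.14 and 10.42 in SALK_070989 dark and 10.01, 9.97 and 10.09 in COL-0 dark, against 2.64 to 2.76 in the 6 light arrays. In the light experiment the dark arrays of both genes lay at 9.97 or above and the light arrays at 3.23 or below, a separation that the rule favours. The dark minus light differences were 8.92 in SALK_070989 and 8.98 in COL-0 for AT1G19530, the member with the highest smaller difference, and 7.49 and 7.37 for AT1G19540. Across the 30 arrays kept in light, AT1G19540 stayed between 2.53 and 2.83.

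Among the members are 3 genes of families first described in cold. AT4G25580 belongs to a cold acclimation family, AT4G33980 is the paralog of the clock and cold gene COR27, and AT4G37220 encodes a cold acclimation membrane protein. AT4G25580 had 8.86, 8.70 and 8.57 in SALK_070989 dark and 9.17, 8.78 and 9.35 in COL-0 dark. AT4G33980 had 8.46, 8.67 and 7.68 in SALK_070989 dark and 9.56, 9.47 and 8.95 in COL-0 dark. AT4G37220 had 8.40, 8.32 and 8.20 in SALK_070989 dark and 9.00, 8.36 and 8.78 in COL-0 dark. The first 2 of these genes sat within 0.01 of the lowest value in all 30 arrays kept in light, as did AT3G15440, AT5G57650 and the unnamed 262047_at. AT4G37220 had 2.23 to 3.36 in those 30 arrays.

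Regulators are represented by 4 named members. ATL8 encodes a RING-type ubiquitin ligase, AT3G59350 a protein kinase of the receptor-like class, AT1G26665 a subunit of Mediator, and AT5G57650 a protein related to translation initiation factors. ATL8 had 10.22, 10.24 and 10.20 in SALK_070989 dark and 10.46, 10.37 and 10.39 in COL-0 dark, against 5.24, 5.06 and 4.87 in SALK_070989 light and 4.06, 4.83 and 4.81 in COL-0 light. AT3G59350 had 10.06 to 10.58 in the 6 dark arrays, against 4.41 to 5.98 in the 6 light arrays. The level of AT1G26665 was 11.50 to 11.63 in the dark arrays and 6.05 to 6.41 in the light arrays, which makes it a gene with a clear level in light as well. AT5G57650 had 6.98 to 8.40 in the dark arrays and 2.23 in all 6 light arrays.

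Another 4 named members encode proteins of metabolism, the cell wall or the vacuole. AT4G38540 encodes an FAD-dependent monooxygenase-type enzyme, AT1G72060 a small serine protease inhibitor, AT2G15880 a leucine-rich repeat extensin-type wall protein and AT1G12080 a vacuolar calcium-binding-related protein. AT1G72060 had 12.32, 11.94 and 12.10 in SALK_070989 dark and 11.96, 11.98 and 12.05 in COL-0 dark, against 6.62, 6.65 and 5.21 in SALK_070989 light and 4.31, 5.11 and 4.19 in COL-0 light. AT4G38540 had 10.76, 10.62 and 10.69 in SALK_070989 dark and 10.16, 10.49 and 10.33 in COL-0 dark, against 4.24 to 5.04 in the 6 light arrays. AT2G15880 had 7.68 to 8.61 in the dark arrays and 2.45 to 2.62 in the light arrays. AT1G12080 spanned 11.13 to 11.54 in the dark arrays and 6.05 to 6.32 in the light arrays. The dark arrays of these 4 genes lay above their light arrays, as the rule favours. The remaining named members, AT5G39520, AT3G20340 and AT3G15440, are given no role here. AT5G39520 had 9.97 to 10.35, AT3G20340 8.97 to 9.34 and AT3G15440 7.72 to 8.34 in the 6 dark arrays, all above 3.21, the highest value of the 3 genes in the light arrays.

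The groups kept in light on other media held most members low as well. The median over the 35 was 3.03 to 3.15 in the 4 steady groups and 2.85 to 3.24 in the 4 nitrogen groups kept in light. Of the 35, 13 were near the lowest level in all 4 steady groups, 13 in all 4 nitrogen groups and 10 in all 10 groups kept in light. The named ones of these 10 are AT1G19530, AT1G19540, AT4G25580, AT4G33980, AT3G15440, AT2G15880, AT4G37220 and AT5G57650. At the other end, 4 members had group means at least 2 higher in both COL-0 nitrogen groups than in COL-0 light. Of these, AT4G38540 is the one with a name. It had 7.93, 7.91 and 7.45 in SALK_070989 N-rich, 7.99, 8.13 and 7.68 in COL-0 N-rich, 7.69, 7.56 and 8.21 in SALK_070989 N-absent and 8.09, 7.76 and 8.24 in COL-0 N-absent. The steady arrays of AT4G38540 had at most 5.98, so the nitrogen arrays lay above all light and steady arrays. The other 3 are unnamed. In the 12 nitrogen arrays kept in light 250662_at had 5.41 to 8.04, 246099_at 9.56 to 10.78 and 245317_at 7.61 to 9.68, against 2.23 to 2.46, 3.75 to 7.23 and 5.02 to 6.58 in the 6 light arrays. The nitrogen arrays differ from the others in growth medium, transfer and experiment, which cannot be told apart.

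**Figure D2:**
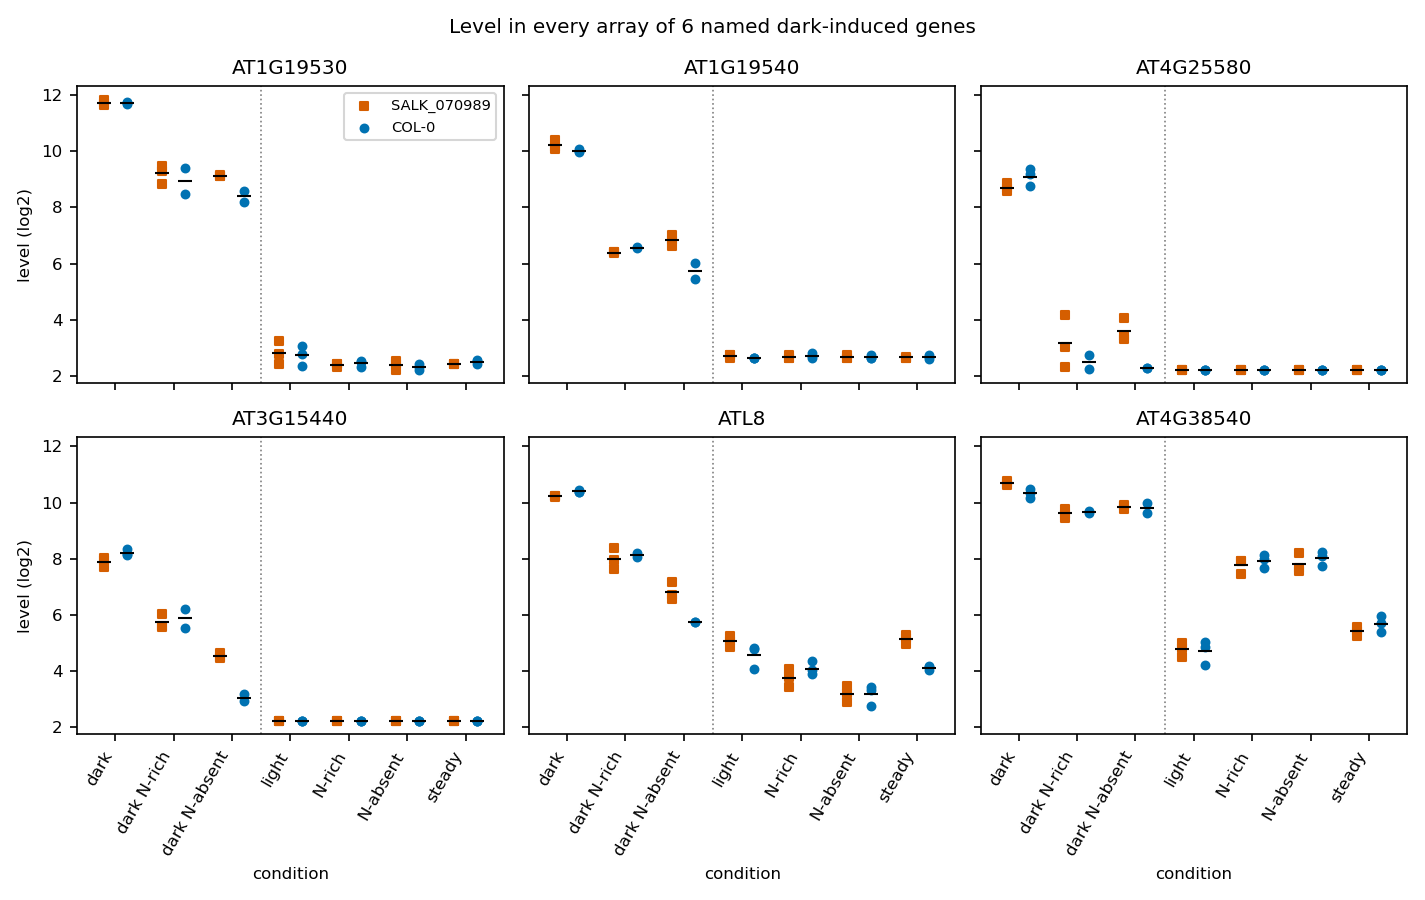
Level (log2) in every array of 6 named genes by condition, with SALK_070989 as squares, COL-0 as circles and the group mean as a bar, dark conditions left of the dotted line. AT1G19530 stays between 8.21 and 9.48 in the combined dark arrays, AT4G25580 between 2.25 and 4.19, and AT4G38540 lies above its light and steady arrays in the nitrogen arrays.

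In the combined experiment, darkness came with much lower levels of most members than in the light experiment. The median over the 35 was 7.59 in SALK_070989 dark N-rich, 7.87 in COL-0 dark N-rich, 7.37 in SALK_070989 dark N-absent and 6.73 in COL-0 dark N-absent. Against the dark group of the same genotype in the light experiment, 34 members were lower in SALK_070989 dark N-rich, 33 in COL-0 dark N-rich, 33 in SALK_070989 dark N-absent and 32 in COL-0 dark N-absent. The median differences were -2.62, -2.78, -2.95 and -3.96 in that order. These counts use the arrays that chose the members, which favours lower values elsewhere, and they carry no test. The share of all probe sets that were lower was not counted. The median level over all probe sets was 4.30 in SALK_070989 dark and 4.29 in COL-0 dark, and 4.60 to 4.65 in the combined dark groups. The length of darkness, the medium and the experiment cannot be told apart.

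The members differed in their level in the combined dark groups, which is not the share of the dark level that was kept. In all 4 combined dark groups, 13 members had means above 8, among them AT1G19530, AT1G72060, AT4G38540, AT1G26665 and AT3G59350. In the same 4 groups, 5 members had means below 4, and the named ones were AT4G25580, AT4G37220 and AT5G57650. The share of all probe sets at these levels was not counted. A mean above 8 could go with a fall, as AT1G72060 had -3.96 for COL-0 dark N-absent minus COL-0 dark. AT4G25580 had 4.19, 2.31 and 3.05 in SALK_070989 dark N-rich, 2.74 and 2.25 in COL-0 dark N-rich, 3.31, 3.42 and 4.08 in SALK_070989 dark N-absent and 2.28 and 2.30 in COL-0 dark N-absent. AT4G33980 reached 3.89 to 5.65 in these 10 arrays, below all 6 dark arrays of the light experiment. The members that did not fall below the light experiment's dark group were all unnamed, and 250662_at was above it in all 4 comparisons, with 10.01 to 10.51 in the 10 combined arrays against 7.57 to 9.07 in the 6 dark arrays.

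Comparing the combined dark groups with the nitrogen groups kept in light on the same medium gives a difference between dark and light in arrays that the rule did not use. On N-rich medium, limma's adjusted p was under 0.05 for 35 of 35 members in SALK_070989 (40.4% of all probe sets tested were higher) and for 34 of 35 in COL-0 (40.3%), all of them higher in the dark. On N-absent medium, 32 members were higher in SALK_070989 (38.3%) and 27 in COL-0 (38.3%), and 0 were lower in any of the 4 comparisons. Of all probe sets tested, 28.2% were lower in SALK_070989 and 26.9% in COL-0 on N-rich medium, and 27.5% and 26.1% on N-absent medium. The median over the members was 3.14 in SALK_070989 and 3.12 in COL-0 on N-rich medium, and 2.92 and 2.17 on N-absent medium, where the medians over all probe sets tested were 0.13 to 0.18. In all 4 comparisons together, 27 members were higher (25.0% of all probe sets tested), and 30 had dark arrays that all lay above the arrays kept in light (27.0%). The dark arrays came from the combined and the light arrays from the nitrogen experiment, so the effects of darkness and of the experiment cannot be told apart. RCA fell by 2.39 to 2.96 in the same comparisons, and its part in the result was not tested.

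Among named members the difference was widest for AT1G19530. Its arrays had 9.16, 9.12 and 9.11 in SALK_070989 dark N-absent and 8.21 and 8.60 in COL-0 dark N-absent, against 2.23, 2.44 and 2.54 in SALK_070989 N-absent and 2.44, 2.23 and 2.33 in COL-0 N-absent. The groups lay far apart, and the difference was 6.73 ± 0.17 in SALK_070989 (SE, limma adjusted p = 2.11e-27) and 6.07 ± 0.19 in COL-0 (adjusted p = 1.04e-24), both lower bounds. AT3G59350 was higher by 4.33 ± 0.25 in SALK_070989 and 4.38 ± 0.28 in COL-0 on N-rich medium. AT1G19540, AT1G12080 and ATL8 were higher by 4.15, 4.11 and 3.62 in SALK_070989 on N-absent medium, and by 3.04, 3.77 and 2.59 in COL-0. On N-rich medium AT5G39520 was higher by 3.14 in SALK_070989 and 3.35 in COL-0. AT4G38540, with its high level in the nitrogen arrays kept in light, had a difference of 2.04 ± 0.21 in SALK_070989 and 1.78 ± 0.23 in COL-0 on N-absent medium, although its level in the dark arrays was 9.47 to 9.98.

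The members that missed the threshold in a comparison were low in the dark group of that comparison, though not always in the other combined dark groups. On N-absent medium in COL-0, AT4G25580 had a difference of 0.06 ± 0.25 (limma adjusted p = 0.847), AT5G57650 0.11 ± 0.28 (adjusted p = 0.752) and AT4G37220 0.29 ± 0.24 (adjusted p = 0.289), with both groups near the lowest level. In SALK_070989 on the same medium AT4G25580 was higher by 1.37 ± 0.22 (adjusted p = 1.86e-06), a lower bound. On N-rich medium in COL-0, AT5G57650 had 3.51 and 2.23 in the dark arrays, against 2.23 in all 3 light arrays. Its difference of 0.64 ± 0.28 (adjusted p = 0.0394) was 0 without COL-0 dark N-rich replicate 1, and also lost its call without any 1 of the COL-0 N-rich arrays kept in light. AT4G37220 on that medium was higher by 1.07 in COL-0 and by 0.27 without the same array (adjusted p = 0.28). In a fit to the groups compared alone, neither gene was called (adjusted p = 0.182 for AT5G57650 and 0.0918 for AT4G37220).

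**Figure D3:**
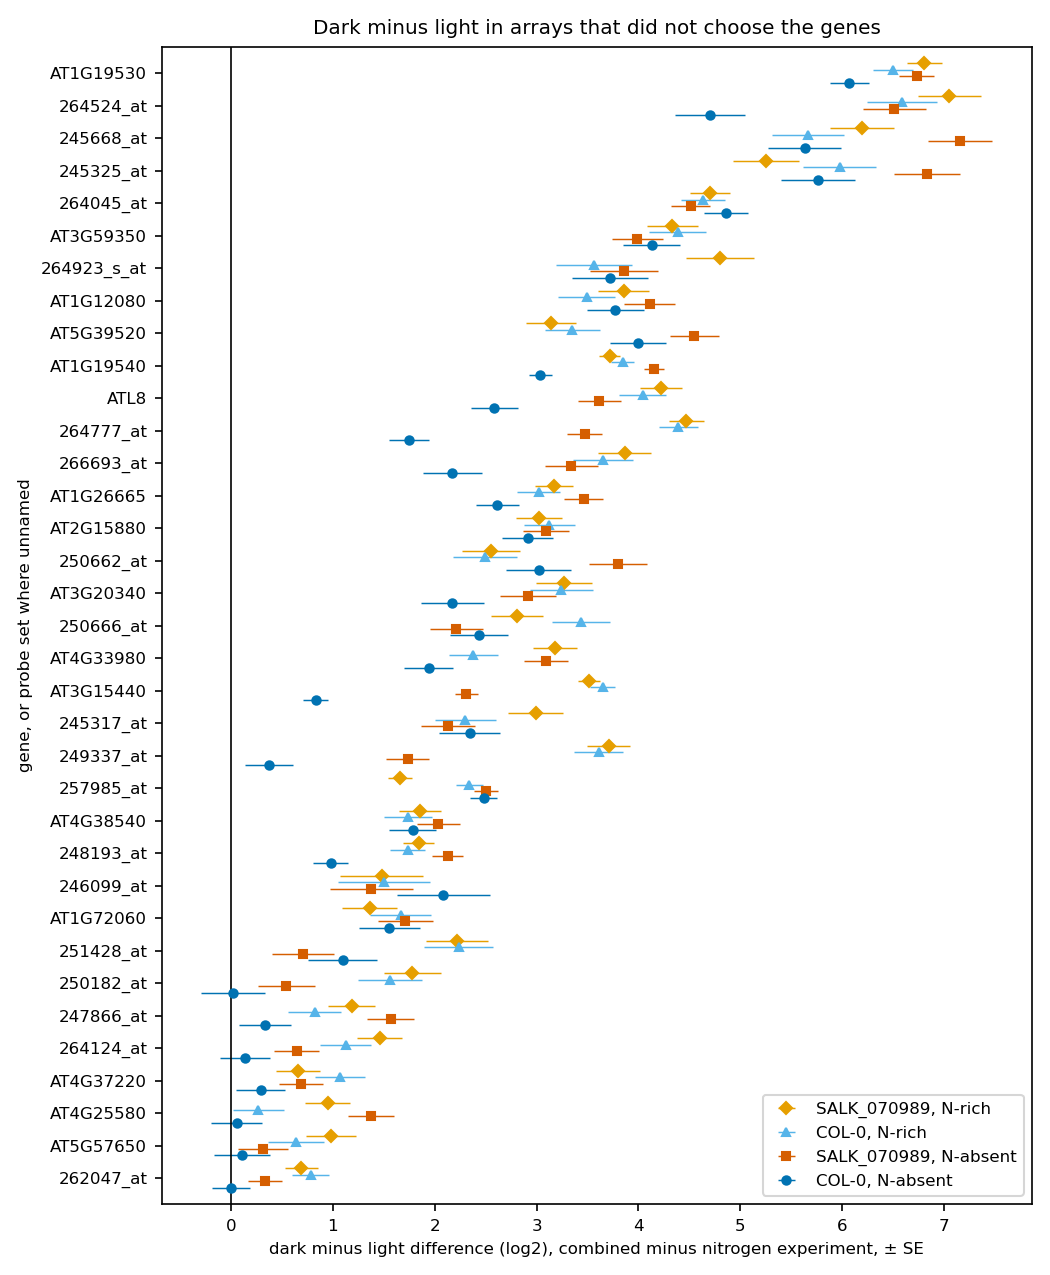
Dark minus light difference (log2, ± SE) of the 35 genes on N-rich and N-absent medium in both genotypes, dark arrays from the combined and light arrays from the nitrogen experiment. AT1G19530 lies between 6.07 and 6.81, and AT4G25580, AT4G37220 and AT5G57650 lie near 0 in COL-0 on N-absent medium.

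Nitrogen supply was set against its absence in the light and in the dark, on different arrays. In the light, 5 members were higher on N-rich medium in SALK_070989 (9.13% of all probe sets tested) and 5 in COL-0 (11.6%), and 1 was lower in SALK_070989 (9.68%) and 1 in COL-0 (14.2%). The named ones that rose were AT1G72060 and ATL8 in both genotypes and AT1G12080 in COL-0. AT1G72060 had 8.51, 8.13 and 7.96 in SALK_070989 N-rich, against 6.55, 7.06 and 6.90 in SALK_070989 N-absent. In COL-0 it had 7.68, 7.94 and 7.34 in N-rich, against 6.05, 6.69 and 6.71 in N-absent. The arrays of the media did not overlap in either genotype, and the differences were 1.36 ± 0.27 in SALK_070989 (limma adjusted p = 2.27e-04) and 1.17 ± 0.27 in COL-0 (adjusted p = 0.0011).

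ATL8 was higher on N-rich medium by 0.92 ± 0.21 in COL-0, where the arrays did not overlap (limma adjusted p = 9.95e-04). In SALK_070989 they overlapped, with 4.08, 3.79 and 3.45 in N-rich against 3.23, 3.47 and 2.90 in N-absent. The difference there was 0.57 ± 0.21 (adjusted p = 0.0484), and the call was lost when any of SALK_070989 N-rich replicates 1 and 2 and N-absent replicates 1 and 3 was left out (0.42 to 0.59, adjusted p 0.0798 to 0.26). AT1G12080 in COL-0 was higher by 0.86 ± 0.25 (adjusted p = 0.00959), by 0.73 without N-rich replicate 1 (adjusted p = 0.0588) and by 0.71 without N-rich replicate 2 (adjusted p = 0.0649). The counts of 6 called members were 3 without SALK_070989 N-absent replicate 3 in SALK_070989 and 3 without COL-0 N-rich replicate 1 in COL-0. In a fit to the groups compared alone they were 2 in SALK_070989 and 3 in COL-0, with neither ATL8 in SALK_070989 (adjusted p = 0.153) nor AT1G12080 in COL-0 (adjusted p = 0.0766) called. For the difference between the genotypes in the nitrogen response in light, limma called 0 members (0.182% of all probe sets tested in either direction), and 3 had an unadjusted p under 0.05 (10.2%).

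In the dark, 11 members were higher on N-rich medium in SALK_070989 (13.6% of all probe sets tested) and 13 in COL-0 (10.6%). Lower were 7 in SALK_070989 (15.0%) and 1 in COL-0 (9.60%). In a fit to the COL-0 groups alone, 7 members were called in place of 14, of which 6 were higher. In both genotypes together, 10 members were higher (4.70% of all probe sets tested) and AT5G39520 was lower (4.72%). The comparisons of the nitrogen response and of dark minus light share the combined arrays. AT3G15440, next to the SnRK1-linked gene AT3G15450 on chromosome 3, had 5.59, 6.03 and 5.63 in SALK_070989 dark N-rich, against 4.65, 4.51 and 4.47 in SALK_070989 dark N-absent. In COL-0 it had 6.23 and 5.54 in dark N-rich, against 2.94 and 3.18 in dark N-absent. The media did not overlap, with a difference of 1.21 ± 0.11 in SALK_070989 (limma adjusted p = 7.97e-11) and 2.82 ± 0.13 in COL-0 (adjusted p = 1.43e-17). Its arrays kept in light sat at the lowest value, which makes the shared spread of this gene small here and below. The 2 COL-0 dark N-rich arrays alone had a standard deviation of 0.49.

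ATL8 had 7.65, 8.37 and 7.96 in SALK_070989 dark N-rich, against 7.16, 6.73 and 6.56 in SALK_070989 dark N-absent. In COL-0 it had 8.20 and 8.08 in dark N-rich, against 5.77 and 5.75 in dark N-absent. The differences were 1.17 ± 0.21 in SALK_070989 and 2.38 ± 0.25 in COL-0, and the lowest N-rich array was above the highest N-absent array in each genotype. AT1G72060, higher on N-rich medium in the light, was also higher in the dark, by 1.01 ± 0.27 in SALK_070989 and 1.28 ± 0.33 in COL-0. The COL-0 call was lost without dark N-absent replicate 1 (1.15, adjusted p = 0.0564), the array with the high GAPDH difference, or without dark N-rich replicate 1 (1.05, adjusted p = 0.0795), and in a fit to the groups compared alone (adjusted p = 0.0637). AT5G39520 was lower on N-rich medium, with 6.10, 6.16 and 6.11 in SALK_070989 dark N-rich, against 7.83, 7.27 and 7.02 in SALK_070989 dark N-absent. In COL-0 it had 6.11 and 6.43 in dark N-rich, against 7.52 and 7.49 in dark N-absent. Its difference was -1.25 ± 0.24 in SALK_070989 and -1.23 ± 0.30 in COL-0, with no overlap in either.

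Other named members were called in 1 genotype. In COL-0, AT4G37220 was higher on N-rich medium by 1.01 ± 0.26, but by 0.21 without dark N-rich replicate 1 (limma adjusted p = 0.636), and it was not called in a fit to the groups compared alone (adjusted p = 0.359). In SALK_070989, AT1G26665 fell by 0.58 on N-rich medium (adjusted p = 0.0167), and its call was lost without dark N-absent replicate 1 or 3 or dark N-rich replicate 2 (-0.54 to -0.52). AT5G57650 was higher by 0.67 ± 0.25 (adjusted p = 0.0398) with overlapping arrays, and lost its call without dark N-absent replicate 2 or 3 or dark N-rich replicate 1 or 2 (0.40 to 0.66), and in a fit to the groups compared alone (adjusted p = 0.245). PYK10 had a difference in the dark of -0.43 in SALK_070989 and -0.76 in COL-0, and RCA had -0.11 in SALK_070989 and 0.57 in COL-0. All but the RCA value in SALK_070989 passed the threshold. Their part in the members' differences was not tested.

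The nitrogen response in the dark itself differed between the genotypes for 8 members, all with a smaller or more negative response in SALK_070989 (6.07% of all probe sets tested were called in that direction), and 0 the other way (3.47%). The named ones were AT3G15440, AT1G19540 and ATL8, with AT3G15440 and ATL8 as given above. SALK_070989 minus COL-0, the response of AT3G15440 differed by -1.61 ± 0.17 (limma adjusted p = 5.06e-08) and that of AT1G19540 by -1.28 ± 0.16 (adjusted p = 1.58e-06). AT1G19540 had 6.40, 6.43 and 6.36 in SALK_070989 dark N-rich, against 7.01, 6.62 and 6.86 in SALK_070989 dark N-absent, and fell by 0.43. In COL-0 it had 6.61 and 6.55 in dark N-rich, against 5.44 and 6.02 in dark N-absent, and was higher by 0.84 ± 0.13, a call lost in a fit to the 2 groups alone (adjusted p = 0.129). The ATL8 response differed by -1.20 ± 0.33 (adjusted p = 0.0153), and its call was lost without COL-0 dark N-absent replicate 1, SALK_070989 dark N-absent replicate 1 or COL-0 dark N-rich replicate 1 (adjusted p 0.0557 to 0.0691), and in a fit to the groups compared alone (adjusted p = 0.0734). The count of 8 was 4 without COL-0 dark N-absent replicate 1, 5 without COL-0 dark N-rich replicate 1, 13 without COL-0 dark N-rich replicate 2 and 5 in a fit to the groups compared alone.

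The nitrogen response was also set against itself between dark and light. The dark response came from the combined and the light response from the nitrogen experiment, and the labels give the time on the medium only for the latter. Darkness, experiment and time on the medium cannot be told apart here. In SALK_070989 it was more positive in the dark for 5 members (4.18% of all probe sets tested) and less so for 4 (4.45%), and in COL-0 it was more positive for 10 (6.46%) and less so for 0 (5.07%). AT3G15440 was called in both genotypes, but all its arrays kept in light sat at the lowest value, so its values of 1.21 ± 0.15 in SALK_070989 and 2.82 ± 0.17 in COL-0 are its responses in the dark printed again. In COL-0, ATL8 was more responsive in the dark by 1.46 ± 0.33 and AT1G19540 by 0.81 ± 0.16. AT1G19540 was near the lowest level in light on both media, and its call was lost in a fit to the groups compared alone (adjusted p = 0.0925). In SALK_070989, AT5G39520 was less so, at -1.40 ± 0.34 (limma adjusted p = 0.00601). The COL-0 count was 6 without dark N-absent replicate 1 and 5 without dark N-rich replicate 1, and the SALK_070989 count was 5 without dark N-rich replicate 2. In fits to the groups compared alone they were 5 in SALK_070989 and 5 in COL-0.

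**Figure D4:**
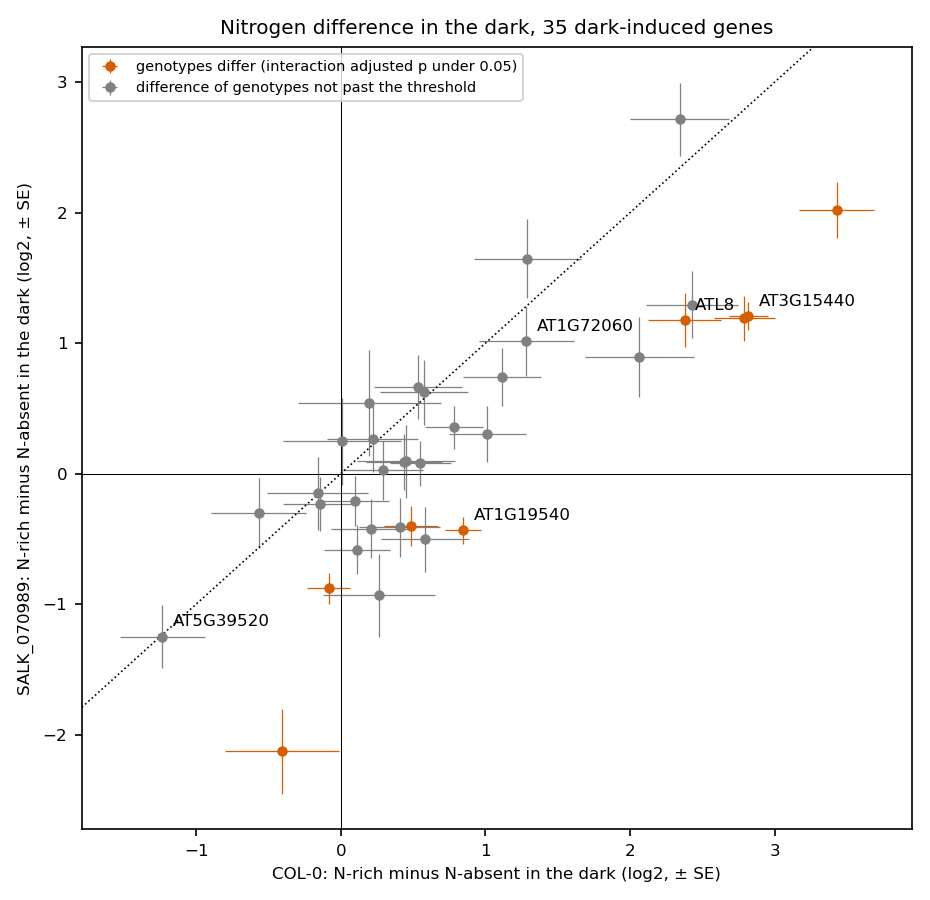
N-rich minus N-absent difference in the dark (log2, ± SE) in SALK_070989 (vertical) against COL-0 (horizontal), with a dotted line of equal response. The 8 genes whose response differs between genotypes lie below the line, among them AT3G15440 (1.21 in SALK_070989, 2.82 in COL-0), and AT5G39520 lies close to it at -1.25 and -1.23.

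The insertion lines were set against COL-0 in each condition that the rule did not use. On steady plates, 3 members were higher and 3 lower in SALK_070989 (5.61% and 6.88% of all probe sets tested), 2 higher and 1 lower in SALK_136009 (5.07% and 3.41%), and 1 higher and 0 lower in SALK_016954 (2.38% and 0.896%). These comparisons share the same 3 COL-0 arrays. ATL8 had 5.17, 4.96 and 5.29 in SALK_070989, 4.94, 5.42 and 4.99 in SALK_136009 and 4.19, 4.79 and 4.79 in SALK_016954, against 4.15, 4.06 and 4.19 in COL-0. It was higher by 1.01 ± 0.21 in SALK_070989 (limma adjusted p = 7.15e-04) and by 0.99 ± 0.21 in SALK_136009 (adjusted p = 0.00155), while its SALK_016954 arrays overlapped those of COL-0 and lay below those of the other lines. AT1G72060 was higher in SALK_070989 by 0.99 ± 0.27, and by 0.86 without SALK_070989 replicate 2 (adjusted p = 0.0527), and it was not called in a fit to the groups compared alone (adjusted p = 0.0513). The unnamed 245668_at was called higher in all 3 lines, with 6.24, 6.82 and 6.72 in SALK_070989, 6.37, 6.67 and 6.40 in SALK_136009 and 5.33, 5.95 and 5.85 in SALK_016954, against 3.97, 4.70 and 4.41 in COL-0. It is the 1 member called in SALK_016954, and that call was lost without COL-0 replicate 1 or SALK_016954 replicate 2 or 3, and in a fit to the groups compared alone.

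In the nitrogen experiment kept in light, limma called 0 members between SALK_070989 and COL-0 on N-rich medium (2.75% of all probe sets tested in either direction), where 7 had an unadjusted p under 0.05 (17.9%) and 1 was called without COL-0 N-rich replicate 1. On N-absent medium 2 were higher (4.18%) and 3 lower (3.84%). The named one was AT1G12080, with 4.54, 5.09 and 4.60 in SALK_070989, against 3.80, 3.91 and 4.04 in COL-0. It was higher by 0.82 ± 0.25 (adjusted p = 0.0346), and the call was lost without any 1 of the COL-0 N-absent arrays or without SALK_070989 N-absent replicate 2 (0.65 to 0.89). The count of 5 was 1 without COL-0 N-absent replicate 3, 3 without any 1 of the SALK_070989 N-absent arrays and 0 in a fit to the 2 groups alone.

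In darkness on N-absent medium, 13 members were higher in SALK_070989 than in COL-0 (11.1% of all probe sets tested) and 0 were lower (8.96%). Of the named members, AT3G15440 was higher by 1.48 ± 0.12 (limma adjusted p = 1.04e-11), AT1G19540 by 1.10 ± 0.11 (adjusted p = 4.15e-09) and ATL8 by 1.06 ± 0.23 (adjusted p = 0.00108), with the arrays given above not overlapping. AT4G25580 was higher by at least 1.31 ± 0.25 (adjusted p = 2.30e-04), since COL-0 was near the lowest level. AT4G33980 had 5.45, 5.15 and 5.36 in SALK_070989, against 4.44 and 3.91 in COL-0, and was higher by 1.15 ± 0.24. AT1G12080 (1.16), AT1G19530 (0.73) and AT1G26665 (0.72) were higher too, each with a call that 1 array can end. Without COL-0 dark N-absent replicate 1, AT1G19530 was at 0.54 (adjusted p = 0.177) and AT1G26665 at 0.68 (adjusted p = 0.109). Without COL-0 dark N-absent replicate 2, AT1G26665 was at 0.75 (adjusted p = 0.0564) and AT1G12080 at 0.84 (adjusted p = 0.105), and without SALK_070989 dark N-absent replicate 3, AT1G26665 was at 0.66 (adjusted p = 0.0503). AT1G12080 was not called in a fit to the groups compared alone (adjusted p = 0.0822). RCA was higher in SALK_070989 in the same comparison, by 0.49 (adjusted p = 1.74e-04), and COL-0 dark N-absent replicate 1 is the array with the GAPDH difference of 2.91. The part of RCA in the result was not tested.

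In darkness on N-rich medium, 1 member was higher in SALK_070989 (2.68% of all probe sets tested) and 1 lower (2.51%). The higher one, AT4G33980, had 5.65, 4.96 and 5.61 in SALK_070989, against 5.33 and 3.89 in COL-0. The arrays overlapped, and its difference of 0.80 ± 0.24 (limma adjusted p = 0.045) was 0.08 without COL-0 dark N-rich replicate 2 (adjusted p = 0.932), and also lost its call without SALK_070989 dark N-rich replicate 1 (0.68) or 3 (0.70). The lower one, unnamed 257985_at, fell by 0.71 (adjusted p = 6.16e-04). The count of 2 was 4 without COL-0 dark N-rich replicate 1, 1 without SALK_070989 dark N-rich replicate 3 and 0 in a fit to the groups compared alone. Averaged over both media, the dark minus light difference was larger in SALK_070989 than in COL-0 for 10 members (5.42%) and smaller for 0 (4.51%). The named ones were AT4G25580 (1.00 ± 0.24), AT4G33980 (0.97 ± 0.23), AT3G15440 (0.67 ± 0.12) and AT1G19540 (0.49 ± 0.11), with adjusted p of 0.0051, 0.00468, 1.23e-04 and 0.00265. All 4 were near the lowest level in the groups kept in light. These values therefore restate their mean difference between the genotypes in the combined dark groups. In dark N-rich, the SALK_070989 mean was below that of COL-0 for AT3G15440 (5.75 against 5.88) and AT1G19540 (6.40 against 6.58). In the light experiment the differences, SALK_070989 then COL-0, were 6.48 and 6.87 for AT4G25580 and 6.04 and 7.09 for AT4G33980. They were 5.67 and 5.99 for AT3G15440 and 7.49 and 7.37 for AT1G19540, with no test between genotypes. The count of 10 was 6 without COL-0 dark N-rich replicate 2 and 6 in a fit to the groups compared alone, where AT4G25580 lost its call (adjusted p = 0.0709). The arrays are those of the comparisons above, not a further set.

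Genes of the starvation programme were followed beside the members from lists chosen with earlier results of these data known. None of the list genes named in the annotation is a member, which leaving out genes by name partly fixed. The 19 members without a gene name could not be matched to the lists. Absence from the members is therefore not shown for list genes that carry no name. IVD, MCCA, MCCB and AT4G33150 were barred by name, and AT4G33150 had passed the threshold in both genotypes. The comparisons on both media set combined dark arrays against nitrogen arrays kept in light. Darkness and experiment cannot be told apart there. Of 8 dark-inducible genes, 0 carry a name in the annotation. Of 18 SnRK1-linked starvation genes, 3 are named, and all 3 were higher in the dark in both genotypes on both media. Of all probe sets tested, 25.0% were higher in all 4 of these comparisons. On N-absent medium AT3G15450 was higher by 5.40 in SALK_070989 and by 4.19 ± 0.27 in COL-0, the SnRK1 regulatory subunit gene AKINBETA1 by 3.22 and 1.89 ± 0.19, and the bZIP factor gene BZIP53 by 0.75 and 0.67 ± 0.14 (COL-0 limma adjusted p = 6.87e-16, 7.64e-11 and 6.57e-05). AT3G15450 had 6.71 in SALK_070989 N-absent and 7.44 in COL-0 N-absent, against 11.56 in SALK_070989 light and 10.79 in COL-0 light. In the light experiment it was higher in the dark by 1.60 in SALK_070989 and 2.20 in COL-0. AKINBETA1 was higher there by 3.12 and 4.04, and BZIP53 by 0.45 and 1.01. Of 17 genes of branched-chain amino acid breakdown, 10 were tested. On N-absent medium 5 were higher and 1 lower in SALK_070989, where 38.3% of all probe sets tested were higher and 27.5% lower. In COL-0 4 were higher and 2 lower on that medium, where 38.3% of all were higher and 26.1% lower. The medians were 0.76 and 0.17, against 0.13 and 0.16 for all probe sets tested. On N-rich medium 5 were higher and 1 lower in SALK_070989, where 40.4% of all were higher and 28.2% lower. In COL-0 5 were higher and 2 lower on that medium, where 40.3% of all were higher and 26.9% lower. In the light experiment 9 of the 10 were higher in the dark and 1 lower in each genotype. Of all probe sets tested, 37.5% were higher and 36.7% lower there in SALK_070989, and 38.1% and 38.2% in COL-0. The list medians there were 2.90 in SALK_070989 and 3.13 in COL-0.

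MCCA, a subunit of methylcrotonyl-CoA carboxylase, was higher on N-absent medium by 3.49 in SALK_070989 and 2.28 in COL-0. MCCB, the other subunit, was higher by 1.26 in SALK_070989 but had 0.18 in COL-0, which missed the threshold (limma adjusted p = 0.207). ALDH6B2, a dehydrogenase of valine breakdown, was higher by 2.04 in SALK_070989 and 1.60 in COL-0. IVD, the isovaleryl-CoA dehydrogenase, was higher by 2.39 and 1.60, and ETFQO, which passes electrons from that step to the respiratory chain, by 1.80 and 0.99. AT2G26800, the lyase of the last step of leucine breakdown, had -1.09 and -1.18 and was called lower in both.

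Of 14 genes of other amino acid breakdown and carbon rescue, 4 were tested, and 3 were higher and 0 lower in each genotype on each medium, though not the same 3. Of all probe sets tested, 38.3% to 40.4% were higher and 26.1% to 28.2% lower in these comparisons. On N-absent medium AT4G33150, the lysine breakdown enzyme, was higher by 2.24 in SALK_070989 and 2.08 in COL-0, and ALDH7B4, an aldehyde dehydrogenase, by 0.57 and 0.64. PPDK, which makes phosphoenolpyruvate, had 1.29 in SALK_070989 and 0.15 in COL-0, and AT5G38710, a proline dehydrogenase, 0.32 and 1.76. PPDK in COL-0 and AT5G38710 in SALK_070989 missed the threshold. On N-rich medium ALDH7B4 missed it in both genotypes, with 0.06 in SALK_070989 and 0.23 in COL-0. In the light experiment ALDH7B4 was higher in the dark by 3.18 in SALK_070989 and 3.62 in COL-0. In the same order, AT4G33150 had 5.46 and 6.31 there, PPDK 2.83 and 2.90, and AT5G38710 0.04 and 0.21.

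Of 12 senescence genes, 3 were tested. On N-absent medium 1 was higher in SALK_070989 and 2 in COL-0, and 0 were lower in either, while on N-rich medium 1 was higher and 2 were lower in each genotype. The shares of all probe sets tested were again 38.3% to 40.4% higher and 26.1% to 28.2% lower. EIN3, a transcription factor of ethylene signalling, was higher on N-absent medium by 1.53 in SALK_070989 and 1.30 in COL-0, and on N-rich medium by 1.67 and 1.87. WRKY53, a senescence regulator, had 0.00477 in SALK_070989 (limma adjusted p = 0.988) and 1.21 in COL-0 (adjusted p = 1.18e-04) on N-absent medium. On N-rich medium WRKY53 had -1.08 in SALK_070989 (limma adjusted p = 1.08e-04) and -0.78 in COL-0 (adjusted p = 0.00866). In the light experiment WRKY53 was higher in the dark, by 1.38 in SALK_070989 and 1.09 in COL-0. Its level in light was 7.17 in SALK_070989 N-rich and 7.27 in COL-0 N-rich, against 3.47 in SALK_070989 light and 3.44 in COL-0 light. Of the 3 genes tested, 2 were higher and 1 lower in the light experiment in each genotype. SAG29 had 0.21 in SALK_070989 and -0.27 in COL-0 on N-absent medium, neither past the threshold, and -1.98 in SALK_070989 and -1.34 in COL-0 on N-rich medium, both called lower.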

How the data were processed

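RNA of shoots was purified on columns, amplified and labelled for arrays read from the 3′ end, per the labels' protocols. The authors deposited a table with 46 columns of values from GCRMA, a tool named in the submitters' processing notes, and the deposited values are taken as log2 from their range of 2.23 to 14.63. The sources used here give neither its version nor whether 1 run held all arrays. Values without signal pile up at the bottom of the table (26.4% of all values lie within 0.01 of the lowest), so a difference against such a group is a lower bound, and normalization across arrays hides a shift of most transcripts. The number of arrays limits the precision.

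All arrays entered 1 linear model of 16 groups, fitted to the 14288 probe sets with a group mean above 4, with limma 3.58.1 in R 4.3.3, eBayes (30 residual and 4.97 prior degrees of freedom) and Benjamini-Hochberg adjustment at 0.05. Values after ± are standard errors. The shared spread is estimated over groups that for many members sit at the lowest value, which makes it small for groups with signal. The 20 comparisons outside the rule were made once each. Gene names come from the platform's annotation, and all 16 named members matched a locus tag of TAIR10.1. One member is a probe set that can match several transcripts (264923_s_at).

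The members and gene lists were chosen with earlier results of these data known. The plan for named genes covered the 10 named members with the largest smaller difference of both genotypes. It also covered up to 4 called members a direction for each comparison, and up to 4 members of a list by adjusted p. Further named members and list genes are given beyond that plan. The highest correlation between 2 arrays was 0.998, and no array was a copy. Same-numbered arrays deviated together in every pair (correlations of 0.126 to 0.155) for N-rich against N-absent in the light in COL-0, and (0.136 to 0.485) for SALK_070989 against COL-0 on N-absent medium. The numbers come from the titles. With the replicate block the counts of called members there stayed at 6 and 5, and no named member's call changed. The block gives arrays of the same number 1 shared effect across all experiments. It therefore cannot test a pairing within 1 experiment. Alternatives were no filter, a filter at 6, quantile normalization, eBayes with trend and robust settings, the replicate block, only the groups compared, and each array left out. Leaving out both arrays with a high GAPDH difference and a crossed pairing were added after seeing the data. Promoter sequence was not analysed here. Tables and figures used pandas 2.3.3, numpy 2.4.6 and matplotlib 3.10.9 in python 3.11.15.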

Additional observations from a re-analysis of the deposited data

Results flagged for a closer look

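Several named members had an effect that differed between genotypes or between dark and light by a test of the difference itself (limma, adjusted p under 0.05). For the dark minus light difference averaged over media, SALK_070989 minus COL-0 was 0.49 for AT1G19540, 1.00 for AT4G25580, 0.97 for AT4G33980 and 0.67 for AT3G15440. For N-rich minus N-absent in the dark, SALK_070989 minus COL-0 was -1.28 for AT1G19540, -1.61 for AT3G15440 and -1.20 for ATL8. For N-rich minus N-absent, dark minus light in SALK_070989 was -1.40 for AT5G39520 and 1.21 for AT3G15440. The same quantity in COL-0 was 0.81 for AT1G19540, 2.82 for AT3G15440 and 1.46 for ATL8. For AT3G15440, AT4G25580, AT4G33980 and AT1G19540 the groups kept in light lie at or near the lowest level, so their values that set dark against light nearly restate the difference of the dark groups. The dark by light value of AT1G19540 in COL-0 lost its call in a fit to the groups compared alone (adjusted p = 0.0925). So did AT4G25580 for dark by genotype (adjusted p = 0.0709) and ATL8 for nitrogen by genotype in the dark (adjusted p = 0.0734). That ATL8 call was also lost when some single arrays were left out (adjusted p 0.0557 to 0.0691). All differences flagged here use the combined dark arrays, 2 in each COL-0 group, so they are not independent of each other. Those that set dark against light take light from the nitrogen experiment. Darkness, experiment and time on the medium cannot be told apart in them. In the light experiment the dark minus light difference was smaller in SALK_070989 than in COL-0 for AT4G25580, AT4G33980 and AT3G15440. It was larger for AT1G19540, and no test compared the genotypes there.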

How the results depend on the processing

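Of 278 counts of called members under an alternative setting, 245 stayed within 1.5 times the count reported and 33 did not, and 150 of the 278 left out 1 array. The number of members was 18 with a threshold of 5.5, and 31 to 36 with 1 array of the light experiment left out. With no filter, 2 members were called for SALK_070989 minus COL-0 on N-absent medium and 1 for dark N-rich. In fits to only the groups compared, the counts were 2 in SALK_070989 and 3 in COL-0 for N-rich minus N-absent in the light, 7 for the same in the dark in COL-0, and 0 each for SALK_016954 steady, SALK_070989 on N-absent medium and SALK_070989 dark N-rich. In the same fits they were 6 for dark by genotype, 5 for nitrogen by genotype in the dark, and 5 in SALK_070989 and 5 in COL-0 for nitrogen by dark. Fewer arrays then estimate the spread. Without both arrays of high GAPDH difference, nitrogen by genotype in the dark had 4 and nitrogen by dark in COL-0 had 6.

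With 1 array left out, the counts ranged from 0 to 1 for SALK_016954 steady, 3 to 7 in SALK_070989 and 3 to 9 in COL-0 for N-rich minus N-absent in the light, 1 to 5 for SALK_070989 on N-absent medium, 0 to 1 on N-rich medium and 1 to 4 in dark N-rich. They ranged from 6 to 12 for dark by genotype, 4 to 13 for nitrogen by genotype in the dark, and 5 to 9 in SALK_070989 and 5 to 15 in COL-0 for nitrogen by dark. AT5G57650, dark minus light on N-rich medium in COL-0, ranged from 0 to 1.28. Where these counts move, the cause was not tested. The dark minus light counts of the combined against the nitrogen experiment stayed at 26 to 35 under every single array left out.

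Of 102 calls of named members outside the rule, 83 were kept under every alternative and 19 were lost under at least 1, 16 of them in fits to only the groups compared. With the replicate number as a block, counts moved by at most 1 (33 members for dark minus light on N-rich medium in COL-0, 5 for N-rich in the light in SALK_070989 and 9 for dark by genotype), and the calls of AT5G57650 and ATL8 in the first 2 were lost (adjusted p = 0.0541 for both). Same-numbered COL-0 dark N-rich and dark N-absent arrays deviated oppositely (correlation -0.182), and with the pairing crossed 15 members were called in place of 14.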
